A study of Mus musculus with 6 samples.

Results

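The muscle RNA splicing regulators described here are 8 genes chosen by name: the muscleblind-like genes Mbnl1, Mbnl2 and Mbnl3, the CELF genes Celf1 and Celf2, the polypyrimidine tract binding genes Ptbp1 and Ptbp2, and Rbm24. They were placed among 23061 mouse genes with a RefSeq transcript on NCBI Build 37 (mm9), and all 8 were found. The chromatin came from C57BL/6 wild type mice: myoblasts of fetal limb muscle (E18.5, 17 passages) were differentiated into myotubes in culture for 48 h. Chromatin immunoprecipitation followed by sequencing (ChIP-seq) gave 2 Sox6 libraries and 2 libraries of RNA polymerase II (Pol II), and 2 input libraries of the same chromatin before immunoprecipitation served as background. Sox6, a transcription factor of the SoxD group, is known for repressing slow-fiber genes in fetal muscle. All 6 libraries came from wild type myotubes, so no condition with altered Sox6 was compared. A culture holds both myotubes and any undifferentiated cells, and more cells with Pol II on a gene cannot be told apart from more Pol II per cell.

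The 8 genes encode proteins that bind pre-mRNA and change which exons are kept. MBNL proteins favour exon choices of mature muscle and are the proteins trapped by expanded repeat RNA in myotonic dystrophy, whereas CELF proteins favour many of the fetal choices at shared target exons. PTBP1 represses exons in most tissues and represses the productive splicing of its neuronal relative Ptbp2. RBM24 is a muscle-restricted activator of exons in sarcomere genes.

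The depth was 2985437 and 1468604 mapped reads for Sox6, 1538757 and 2762155 for Pol II, and 21973495 and 24249850 for input. Repeated positions made up between 2.96% and 7.88% of the reads of a library. Of 10 markers of skeletal myotubes, all 10 had more Pol II than input over their bodies, with mean levels between 2.23 and 75.2 RPKM, the field's unit for reads scaled to the length of the gene region and to the mapped reads of the library. Over all bodies 37.5% were higher and 25.4% lower. Of 5 fibroblast markers none passed the test in limma as higher, 0 at an unadjusted p under 0.05, and 3 as lower. Among 5 neuronal, 3 Schwann cell, 3 endothelial, 3 blood and 3 cycling-cell markers, only Tubb3 and Cd68 were higher, and Cd68, a macrophage marker, reached 4.51 and 6.53 RPKM. Ptprc, another of the blood markers, passed as lower in limma, at 0.174 and 0.139 RPKM against 0.596 and 0.51 RPKM of input. The blood marker Hbb-b1 had 0 Pol II reads in both libraries and fell below the read filter.

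Sox6 peaks in or within 20 kb of a gene were found for 3 of the 8 regulators: Celf2, Mbnl1 and Ptbp1. Celf2 alone had a peak common to both Sox6 replicates, against 4.29% of all genes with such a peak within 20 kb. In the list of replicate 1 the number was 3 of 8 genes, with 5 peaks, against 9.59% of all genes, and in that of replicate 2 it was 1 of 8, against 6.63%. No peak lay within 20 kb of Mbnl2, Mbnl3, Celf1, Ptbp2 or Rbm24. Peaks farther out, between 20 and 50 kb, were a replicate 1 peak and a replicate 2 peak downstream of Celf1 and a replicate 2 peak 45488 bp upstream of Rbm24. Downstream of Celf1, the replicate 1 peak lies inside Psmc3 and the replicate 2 peak where Psmc3 and Slc39a13 overlap.

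The sequences of these peaks are shown because they are the Sox6 peaks called in or within 20 kb of the regulators. All are given on the forward strand of NCBI Build 37. Capitals mark matches, on either strand, to the Sox motifs ACAAAG or ACAATG, the E-box motifs CAGCTG or CAGGTG, the Runx motif CCACA and the Tead motif GGAATG.
Celf2, common peak, chr2:7011762-7011881, 120 bp, upstream of the gene: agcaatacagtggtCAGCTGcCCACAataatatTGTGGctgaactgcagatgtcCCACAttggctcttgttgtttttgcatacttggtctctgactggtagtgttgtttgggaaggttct
Mbnl1, replicate 1 peak, chr3:60308801-60308900, 100 bp around the centre, intron 1: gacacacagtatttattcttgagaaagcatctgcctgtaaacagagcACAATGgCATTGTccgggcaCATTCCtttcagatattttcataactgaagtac
Ptbp1, distal replicate 1 peak, chr10:79303931-79304030, 100 bp around the centre: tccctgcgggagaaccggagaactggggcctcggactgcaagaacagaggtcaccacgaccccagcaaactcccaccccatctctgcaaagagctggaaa
Ptbp1, middle replicate 1 peak, chr10:79313091-79313190, 100 bp around the centre: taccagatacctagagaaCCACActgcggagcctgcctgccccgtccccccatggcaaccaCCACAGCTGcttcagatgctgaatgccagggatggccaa
Ptbp1, proximal replicate 1 peak, chr10:79314551-79314850, 300 bp around the centre: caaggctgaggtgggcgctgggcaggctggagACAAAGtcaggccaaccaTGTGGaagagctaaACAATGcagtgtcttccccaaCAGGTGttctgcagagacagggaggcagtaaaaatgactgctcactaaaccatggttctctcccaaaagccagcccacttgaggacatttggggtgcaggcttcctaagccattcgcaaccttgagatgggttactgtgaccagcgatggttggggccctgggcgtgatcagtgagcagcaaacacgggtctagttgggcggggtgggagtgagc

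The deposited Celf2 common interval held no Sox motif, 1 CAGCTG E-box and 3 Runx motifs, and 2 Sox motifs lay elsewhere in the 450 bp window around its centre. Over all 1066 common intervals, 52% held a Sox motif of either form, 55.5% an E-box of either form, 60.8% a Runx and 23.4% a Tead motif. In windows of 450 bp the shares were 73.8%, 81.5%, 87.1% and 42.5%. The 40 bp replicate 1 peak in Mbnl1 held 2 copies of ACAATG on opposite strands. The distal Ptbp1 interval held none of the motifs, but 2 Sox and 2 Tead motifs lay elsewhere in the 450 bp window around its centre. The middle interval held 1 E-box and 1 Runx motif that overlap each other. The proximal Ptbp1 interval is 700 bp wide and held 5 Sox motifs and 3 E-boxes. Over the 2888 replicate 1 intervals, 36.4% held a Sox motif and 43.1% an E-box. These intervals differ in length, so the shares describe the lists and are not an expectation for a single peak.

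The second set of sequences shows the 150 bases before annotated starts whose Pol II values are given further on, on the strand of the gene with CpG in capitals. A start rich in CpG is the usual form of promoter for broadly used genes.
Celf2, most upstream start, chr2:7002349-7002498, minus strand: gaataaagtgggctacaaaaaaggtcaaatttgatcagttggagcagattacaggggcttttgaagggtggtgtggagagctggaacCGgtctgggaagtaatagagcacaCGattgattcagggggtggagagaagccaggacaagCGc
Celf2, start 2, chr2:6806043-6806192, minus strand: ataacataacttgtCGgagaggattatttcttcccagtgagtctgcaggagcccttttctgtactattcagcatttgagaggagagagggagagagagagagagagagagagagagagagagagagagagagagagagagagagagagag
Celf2, start of transcript Celf2-005, chr2:6793644-6793793, minus strand: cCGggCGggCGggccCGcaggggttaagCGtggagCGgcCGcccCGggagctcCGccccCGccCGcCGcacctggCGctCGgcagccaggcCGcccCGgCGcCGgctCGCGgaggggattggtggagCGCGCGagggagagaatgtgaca
Mbnl1, start 2, chr3:60305024-60305173, plus strand: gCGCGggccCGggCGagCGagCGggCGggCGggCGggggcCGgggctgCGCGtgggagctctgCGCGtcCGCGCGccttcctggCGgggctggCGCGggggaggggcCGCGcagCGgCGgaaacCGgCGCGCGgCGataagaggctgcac
Ptbp1, chr10:79317022-79317171, plus strand: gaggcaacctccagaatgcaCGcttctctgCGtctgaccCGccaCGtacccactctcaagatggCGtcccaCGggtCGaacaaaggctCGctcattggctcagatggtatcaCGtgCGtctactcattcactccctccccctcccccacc
Rbm24, chr13:46513519-46513668, plus strand: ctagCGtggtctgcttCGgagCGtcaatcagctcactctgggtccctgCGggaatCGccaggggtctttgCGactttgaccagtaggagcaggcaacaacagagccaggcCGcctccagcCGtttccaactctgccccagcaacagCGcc

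In the 300 bp around a start, counted from 250 bases before it to 50 bases after it, Celf2-005 and Mbnl1 start 2 each held 49 CpG, at percentile 99.3 of 40997 annotated starts, whose median was 6. Ptbp2 held 36 CpG and the most upstream Celf1 start 32, Ptbp1 22 and Rbm24 18. The other 3 Celf2 starts with coding transcripts downstream of the most upstream start held 4, 3 and 0. Mbnl1 start 2 and Celf2-005 share this density of CpG. Pol II held 0 and 4 reads at Mbnl1 start 2 and 4 and 9 at Celf2-005, a difference that was not tested.

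Pol II over the gene body, from 500 bp after the start to the end of the longest model, was compared with input to ask how much Pol II each regulator carried in these myotubes. Of the 8 genes, 6 had more Pol II than input, 1 had less and 1 did not pass the test. Over all 20139 bodies tested the shares were 37.5% higher and 25.4% lower (limma, adjusted p under 0.05). The order from the highest level was Rbm24, Ptbp1, Celf1, Celf2, Mbnl2, Ptbp2, Mbnl1 and Mbnl3, and the 2 replicate values of neighbours in this order did not overlap. This holds for the longest models, and the order of Celf1 and Celf2 depends on the model, as given further on. With 2 libraries a group an exact permutation test of a single gene cannot go below p = 0.333, so the calls rest on the spread that limma shares across genes.

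**Figure D1:**
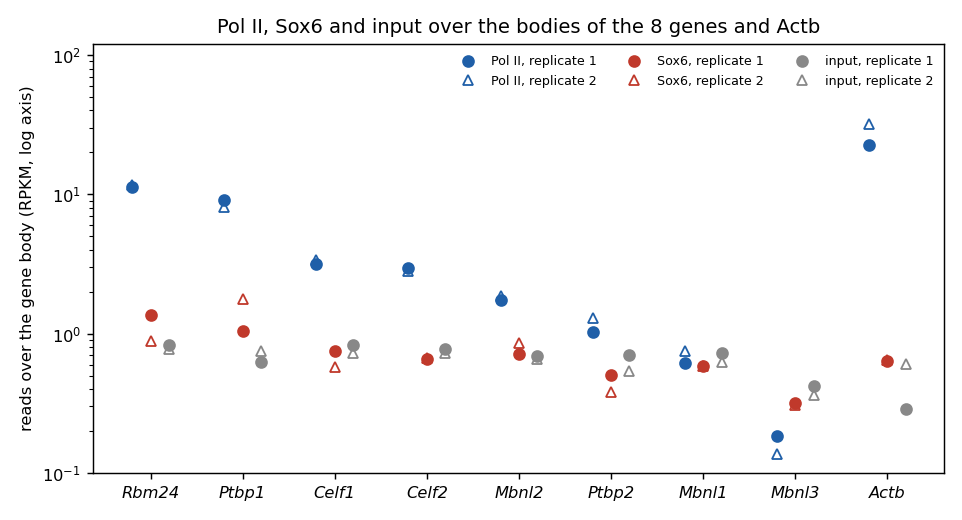
Reads over the gene body (RPKM, log axis) in each of the 6 libraries for the 8 genes, ordered by mean Pol II level, and for Actb as a reference. Filled circles are replicate 1 and open triangles replicate 2; Rbm24 at 11.4 and 11.6 RPKM sits highest of the 8 in Pol II, Mbnl1 overlaps its input, and Mbnl3 at 0.185 and 0.136 RPKM lies below it.

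Rbm24, on chromosome 13 (46513669 to 46526459, plus strand, 4 exons), carried 11.4 and 11.6 RPKM of Pol II against 0.829 and 0.775 RPKM of input. Both Pol II libraries were far above both inputs, and the mean level of 11.49 ± 0.168 RPKM (SD, n = 2) lay at percentile 99.4 of 21005 bodies. The log2 ratio was 3.84 (SE 0.111, limma, adjusted p = 1.529e-08). Actb, the housekeeping actin gene used as a reference in the study, carried 22.6 and 32.1 RPKM.

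Ptbp1, on chromosome 10 (79317374 to 79327516, plus strand, 13 exons), carried 9.10 and 8.07 RPKM of Pol II against 0.628 and 0.744 RPKM of input, at percentile 99. The log2 ratio was 3.65 (SE 0.149, limma, adjusted p = 9.726e-08). Ptbp2, on chromosome 3 (119421660 to 119486306, minus strand, 14 exons), encodes its neuronal relative and carried 1.03 and 1.30 RPKM against 0.698 and 0.543 RPKM of input. Its Pol II values did not overlap the inputs, but the log2 ratio was 0.92 (SE 0.15, limma, adjusted p = 0.000569). The level of Ptbp1 was thus 8.59 ± 0.726 RPKM and that of Ptbp2 1.17 ± 0.191 RPKM (SD, n = 2).

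Celf1 (chromosome 2, 90780554 to 90859654, plus strand, 13 exons) carried 3.14 and 3.38 RPKM of Pol II against 0.826 and 0.722 RPKM of input, a log2 ratio of 2.08 (SE 0.0913, limma, adjusted p = 1.463e-07). Celf2 (chromosome 2, 6585049 to 7002253, minus strand) carried 2.97 and 2.82 RPKM against 0.773 and 0.723 RPKM, a log2 ratio of 1.95 (SE 0.062, limma, adjusted p = 2.437e-08). Both CELF genes stood clear of input in both replicates. The longest Celf2 model has 3 exons and leaves out the 3′ part of the gene. From the first to the last base of any transcript, 541.6 kb, Celf2 carried 3.47 and 3.39 RPKM and Celf1 3.13 and 3.36 RPKM, so the order of the CELF genes depends on the model and they are not told apart.

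The MBNL genes differed among themselves. Mbnl2 (chromosome 14, 120674891 to 120830919, plus strand, 9 exons) carried 1.74 and 1.87 RPKM of Pol II against 0.691 and 0.653 RPKM of input, a log2 ratio of 1.43 (SE 0.0767, limma, adjusted p = 4.805e-07). Mbnl1 (chromosome 3, 60277032 to 60432122, plus strand, 9 exons), the member whose loss gives myotonia in mice, carried 0.618 and 0.749 RPKM against 0.725 and 0.625 RPKM. Pol II and input overlapped at Mbnl1, with a log2 ratio of 0.02 (SE 0.114, limma, adjusted p = 0.9). Mbnl1 and Mbnl2 have bodies of nearly the same length, 154.6 and 155.5 kb, and Mbnl1 held 147 and 320 Pol II reads where Mbnl2 held 416 and 804.

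Mbnl3, which is linked with proliferating myoblasts and lies on the X chromosome (48470446 to 48559009, minus strand, 7 exons), held 25 and 33 Pol II reads against 812 and 780 input reads. Its Pol II level of 0.185 and 0.136 RPKM was below the input level of 0.42 and 0.365 RPKM in both replicates, with a log2 ratio of -1.28 (SE 0.178, limma, adjusted p = 0.0001988). The median of 930 X-linked bodies was 0.148 RPKM in both Pol II libraries and 0.309 and 0.290 RPKM in the inputs, so Mbnl3 lay near the usual level of its chromosome. The part of the chromosome in the lower call was not tested.

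Pol II at start sites was counted in 500 bp on each side of each start with a coding transcript, in RPM, which scales reads to the mapped reads of the library but not to length. The 8 genes have 16 such starts. Of these, 9 had more Pol II than input, 6 did not pass the test and 1 fell below the filter of 10 reads. Over all 25248 starts tested, 42.2% were higher and 0.0634% lower (limma, adjusted p under 0.05). The share lower rests on 16 starts and depends on the processing, with 4230 starts lower when 1 read of the shallowest library was added instead of 0.5 reads. Windows hold few reads, so small ratios at starts are imprecise.

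**Figure D2:**
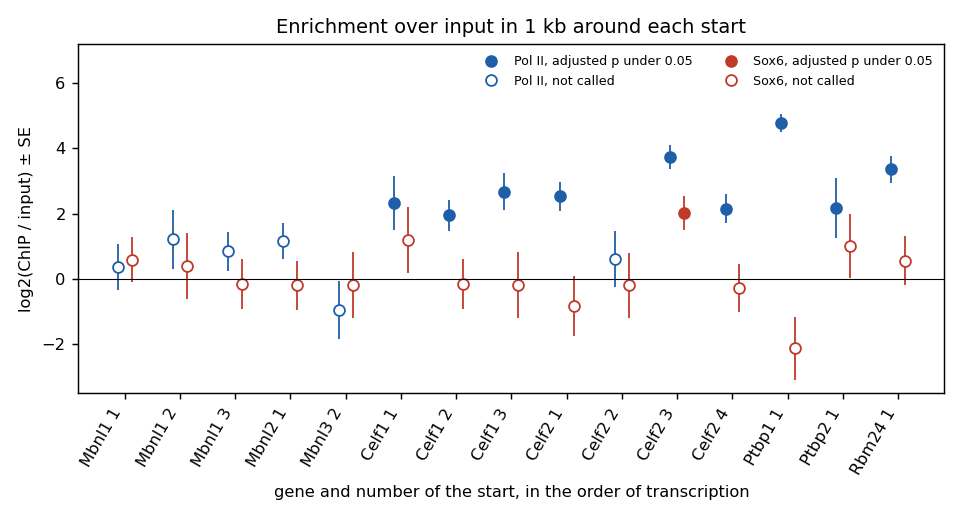
Log2 ratio of Pol II (blue) and Sox6 (red) to input, with its standard error, in 1 kb around the 15 starts that passed the read filter; filled points have an adjusted p under 0.05 in limma. Pol II is highest at the Ptbp1 start (4.79), Celf2 start 3 (3.74) and the Rbm24 start (3.36), and Sox6 has 1 filled point, at Celf2 start 3 (2.02).

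The Ptbp1 start held 41 and 84 Pol II reads against 23 and 24 input reads, or 26.6 and 30.4 RPM against 1.05 and 0.99 RPM. The log2 ratio was 4.79 (SE 0.28, limma, adjusted p = 1.081e-62), the highest of the 15 starts tested. This window overlaps E130317F20Rik, a noncoding gene on the opposite strand, and reads of overlapping genes cannot be assigned. The start window of E130317F20Rik itself held 33 and 32 Pol II reads against 3 and 16 input reads, a log2 ratio of 5.6. Per kilobase, the Ptbp1 start window carried 2.93 and 3.76 times the Pol II of the Ptbp1 body. The Rbm24 start held 7 and 23 Pol II reads against 15 and 13 input reads, a log2 ratio of 3.36 (SE 0.424, limma, adjusted p = 3.999e-14). Per kilobase, the Rbm24 start carried 0.4 and 0.717 times the Pol II of its body, so the reads of Rbm24 were spread over the gene rather than gathered at its start.

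All 3 coding starts of Celf1 passed the test, each on few reads. They held 1 and 5, 3 and 11, and 4 and 8 Pol II reads, with log2 ratios of 2.34, 1.95 and 2.68 (limma, adjusted p = 0.01247, 0.0001912 and 8.828e-06). The most upstream one no longer passed without either input library, with ratios of 1.55 without replicate 1 and 3.13 without replicate 2. It was also lost with 1 or 3 reads of the shallowest library added (0.94 and 0.48) and with median centring (1.35). The second was lost with 3 reads added (0.82) and with median centring (0.96), and the third with 250 bp on each side (1.29). Ptbp2 passed at its start with 2 and 1 Pol II reads against 6 and 3 input reads, a log2 ratio of 2.18 (SE 0.91, limma, adjusted p = 0.03956). That call was lost without Pol II replicate 1 (1.39) and without either input (2.70 and 1.67), as well as under both larger pseudocounts, median centring, shifted reads and one fit of all libraries, and a start resting on 3 Pol II reads gives little weight to the value.

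None of the starts of the MBNL genes passed the test for Pol II in limma, while 10 of the 15 member starts tested had an unadjusted p under 0.05. Mbnl1 held 2 and 1, 0 and 4, and 2 and 3 Pol II reads at its 3 starts, with log2 ratios of 0.37, 1.22 and 0.85. Mbnl2 held 1 and 9 Pol II reads at its start against 13 and 26 input reads, a log2 ratio of 1.16 (SE 0.552, limma, adjusted p = 0.0801). Without Pol II replicate 1 the log2 ratios were 2.38 at Mbnl1 start 2 and 2.07 at the Mbnl2 start. In that fit the lone Pol II library is assumed to vary like the inputs, so calls there carry little weight. Mbnl3 held 0 Pol II reads at both starts, which allows up to 1.95 RPM in replicate 1 and 1.09 RPM in replicate 2, where 0 reads stand for up to 3.

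Celf2 was read along its length because its 4 coding starts differed. From the most upstream start onward they held 6 and 11, 1 and 1, 14 and 26, and 7 and 8 Pol II reads, with log2 ratios of 2.53, 0.62, 3.74 and 2.16. Starts 1, 3 and 4 passed (limma, adjusted p = 1.738e-07, 1.091e-21 and 5.406e-06), and start 2 did not (adjusted p = 0.646). Noncoding genes on the opposite strand overlap start 1 (Gm17437) and start 2 (Gm13389), and reads of overlapping genes cannot be assigned.

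**Figure D3:**
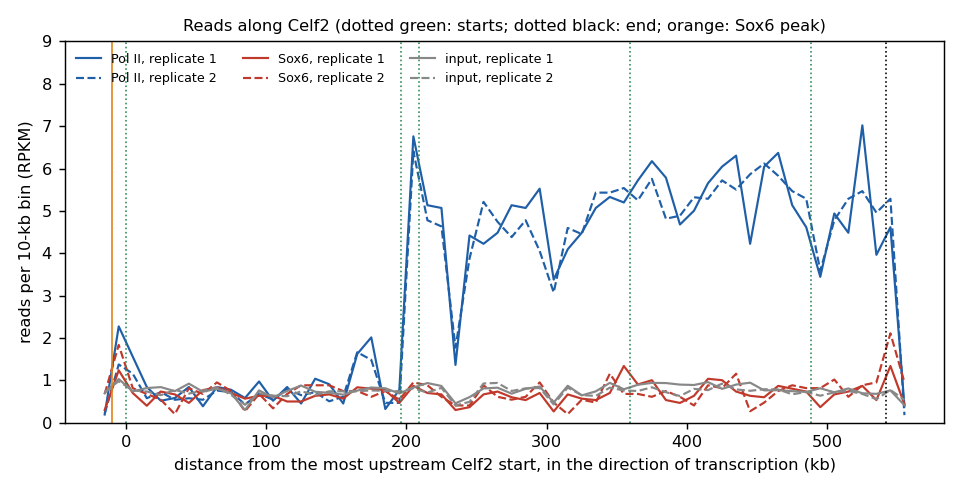
Reads per 10 kb bin (RPKM) along Celf2 from its most upstream start, in the direction of transcription; blue is Pol II, red Sox6 and grey input, with solid lines for replicate 1 and dashed lines for replicate 2. Pol II stays near input between 10 and 160 kb (0.706 and 0.628 RPKM) and is high from 200 kb on (4.998 and 4.961 RPKM between 200 and 550 kb), while Sox6 and input run level over most of the gene.

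Pol II was not even along Celf2. Between 10 and 160 kb from the most upstream start it stood at 0.706 and 0.628 RPKM, and between 200 and 550 kb at 4.998 and 4.961 RPKM, where input stood at 0.795 and 0.735 RPKM. The last bin reaches past the end of the gene at 541.6 kb. In the first 10 kb Pol II stood at 1.56 and 1.16 RPKM against 0.742 and 0.763 RPKM of input. Between 160 and 180 kb it stood at 1.82 and 1.57 RPKM and fell back to 0.552 and 0.471 RPKM before 200 kb. Both replicates showed the same order of these stretches. The 35 bins of 10 kb between 200 and 550 kb ranged from 1.37 to 7.02 RPKM in replicate 1 and from 1.77 to 6.41 RPKM in replicate 2.

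This unevenness was examined further by cutting every gene at the starts of all its annotated transcripts, a division chosen after the data were seen. Celf2 then has 5 segments. The first, 195.3 kb, carried 0.832 and 0.734 RPKM of Pol II, a log2 ratio to input of 0.11 (SE 0.0838, limma, adjusted p = 0.308), where 37% of 21537 segments were higher and 19.5% lower. The next, 11.4 kb, carried 5.47 and 5.24 RPKM, and the last 3 segments, of 149.4, 128.4 and 52.6 kb, carried between 4.40 and 5.54 RPKM. The rise from the first to the second segment was 5.89-fold, a log2 change of 2.56 (SE 0.129, limma, adjusted p = 0.0009027). Over 12877 pairs of consecutive segments of all genes 2.89% rose and 0.761% fell, and 135 changes were larger than that of Celf2. The later changes along Celf2 were -0.07, 0.17 and 0 on the log2 scale (limma, adjusted p = 0.807, 0.164 and 0.985). None of the segment changes of Celf1, Ptbp1, Mbnl1 or Mbnl3 passed the test in limma, and among the 16 changes of the regulators 2 had an unadjusted p under 0.05.

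Within the second segment the reads lay near the start of Celf2-005, a transcript annotated for nonsense-mediated decay, 208.7 kb from the most upstream start. From 20 to 5 kb before that start Pol II stood at 1.04 and 0.555 RPKM. In the 5 kb before it Pol II stood at 10.9 and 11.4 RPKM, from 84 and 157 reads, against 0.883 and 0.858 RPKM of input. In the 20 kb after it Pol II stood at 5.23 and 4.71 RPKM. Start 2, at 196.3 kb, lay in the low stretch, so the rise came after it and before the annotated start of Celf2-005. At the Celf2-005 start itself 4 and 9 Pol II reads stood against 2 and 6 input reads, a log2 ratio of 4.18 (SE 0.75, limma, adjusted p = 1.778e-07), where 38.7% of 35513 starts of any transcript were higher and 0.0591% lower. Pol II stood at 2.60 and 3.26 RPKM in this window and input at 0.0909 and 0.247 RPKM, both below their levels in the 5 kb before it. The ratio thus goes with low input and few reads, and Pol II was not gathered at this start. The bases printed for this start are dense in CpG, those of start 2 end in a long GA repeat, and those of the most upstream start hold few CpG.

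Pol II past the 3′ ends was counted without a test. In the 10 kb after the last annotated base it stood at 4.29 and 4.60 RPKM for Celf2, 3.25 and 3.44 RPKM for Celf1, 4.09 and 3.51 RPKM for Ptbp1 and 2.99 and 3.62 RPKM for Rbm24. For Mbnl2 it stood at 1.17 and 1.48 RPKM against 0.40 and 0.454 RPKM of input, and for Ptbp2 at 0.975 and 1.48 RPKM against 0.633 and 0.54 RPKM of input. These 6 genes had both Pol II values above both inputs there. For Mbnl1 it stood at 0.325 and 0.579 RPKM and for Mbnl3 at 0 and 0.181 RPKM. In the 10 kb before the most upstream start Ptbp1 carried 8.51 and 9.20 RPKM and Celf2, on the stretch of its Sox6 peak, 2.28 and 1.38 RPKM against 1.03 and 0.981 RPKM of input. Rbm24 carried 0.975 and 1.12 RPKM there and Celf1 0.65 and 0.543 RPKM.

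Sox6 was compared with input over the same windows to ask how much Sox6 each regulator carried, with reads at called peaks included. None of the 8 bodies passed the test, while 5.39% of 20171 bodies were higher and 1.75% lower (limma, adjusted p under 0.05). The 354 bodies lower became 0 with 1 read of the shallowest library added, and ranged from 32 (without input replicate 1) to 3034 (without Sox6 replicate 1). At an unadjusted p under 0.05, 1 of the 8 was higher and 3 were lower. Ptbp1 came nearest, with 1.04 and 1.76 RPKM of Sox6 against 0.628 and 0.744 RPKM of input, a log2 ratio of 1.01 (SE 0.281, limma, adjusted p = 0.0604). Rbm24, whose Pol II was highest, carried 1.36 and 0.886 RPKM of Sox6 (log2 ratio 0.48, adjusted p = 0.216), and Celf2 0.662 and 0.665 RPKM (log2 ratio -0.17, adjusted p = 0.166), both in limma. With a Sox6 library left out, the lone Sox6 library is assumed to vary like the inputs, and the bodies higher rose from 1088 to 7163 without replicate 1 and 4488 without replicate 2, so calls there carry little weight. Ptbp1 passed as higher in one fit of all 6 libraries, for which the share over all bodies is not given here. It also passed with the replicate number as a block, where Celf2 and Ptbp2 passed as lower, although the numbers were not taken as pairs. The Ptbp1 log2 ratio was 1.39 without Sox6 replicate 1 and 0.63 without replicate 2. Rbm24 passed as higher without Sox6 replicate 2 (0.78), and Mbnl2 without replicate 1 (0.34). Mbnl3 passed as lower without either replicate (-0.32 and -0.30), and Celf1 (-0.40) and Ptbp2 (-0.67) without replicate 1. The Sox6 levels of the other 5 genes lay between 0.309 and 0.849 RPKM.

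At starts, 1 of the 15 tested had more Sox6 than input, where 2.38% of 25379 starts were higher and 0 lower (limma, adjusted p under 0.05), with 51 starts lower at an unadjusted p under 0.05 and 468 and 1163 lower without Sox6 replicate 1 or 2. This was Celf2 start 3, with 14 and 2 Sox6 reads against 12 and 21 input reads, or 4.69 and 1.36 RPM against 0.546 and 0.866 RPM (log2 ratio 2.02, SE 0.523, limma, adjusted p = 0.01224). Replicate 1 was far above replicate 2, no Sox6 peak was called there, and with the window moved to the start of any transcript the value was 1.49 and no longer passed (limma, adjusted p = 0.0953), where 2.23% of starts of any transcript were higher. The Sox6 call at this start also did not hold without input replicate 1 (1.70) or replicate 2 (2.34). At Celf1 start 1, with 3 and 0 Sox6 reads, the log2 ratio was 2.09 without Sox6 replicate 2. At Mbnl1 start 2, with 0 and 1 Sox6 reads, it was 1.71 without replicate 1. Both values rest on 1 Sox6 library and few reads, so they carry little weight. The Ptbp1 start, with the most Pol II, held 0 Sox6 reads in both replicates, which allows up to 1.005 RPM and 2.04 RPM where input stood at 1.05 and 0.99 RPM (log2 ratio -2.12, limma, adjusted p = 0.245). The ratio passed as lower in one fit of all 6 libraries (-2.12) and without Sox6 replicate 1 (-1.61) or replicate 2 (-2.63), but with 0 reads it is set by the 0.5 reads added.

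At the peaks themselves, reads were counted in 450 bp around the centre. The peaks were called on these reads, so the Sox6 level in the calling replicate is a description. A peak of replicate 1 was then tested in the reads of replicate 2, and the reverse, which compares 1 library with 1 input and covers counting error only. The Celf2 site was called in both replicates, so its test in the other replicate would repeat the choice of the peak and is not given. Of the 2888 replicate 1 peaks 67% had more Sox6 than input in replicate 2, and of the 1734 replicate 2 peaks 84.4% had more in replicate 1 (exact binomial test, two-sided, adjusted over the list). Of the 1799 replicate 1 peaks with no replicate 2 peak within 450 bp, 49.8% passed, and the peak in Mbnl1 and the 3 at Ptbp1, 4 of 4, were among them. The split by the other list was added after the data were seen.

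**Figure D4:**
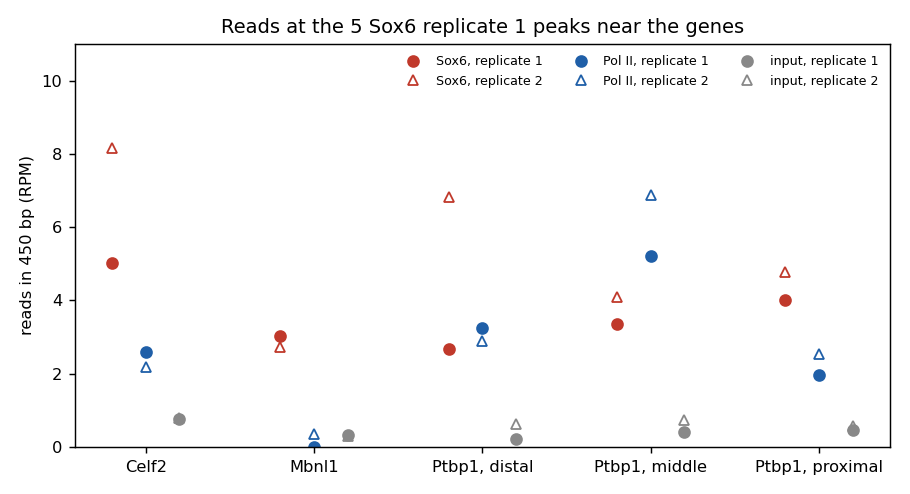
Reads in 450 bp around the 5 Sox6 peaks of replicate 1 within 20 kb of the genes (RPM) in each library; filled circles are replicate 1 and open triangles replicate 2. Both Sox6 values lie above both inputs at every peak, highest at Celf2 (5.02 and 8.17 RPM), and Pol II is above input at Celf2 and at the 3 Ptbp1 peaks and near input at Mbnl1.

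The Celf2 peak lies 9568 bp upstream of the coding start, with no annotated gene between other than the end of Gm17437, which overlaps that start, and 15 and 12 Sox6 reads fell in its window against 17 and 20 input reads. As rates these were 5.02 and 8.17 RPM of Sox6 and 0.774 and 0.825 RPM of input. The medians over the 1066 common peaks were 5.02 and 6.81 RPM of Sox6 and 0.501 and 0.536 RPM of input. The Celf2 peak lay at percentiles 53.3 and 72.3 of these peaks in Sox6 and at 88.0 and 88.3 in input. In windows 2 kb to either side it held 2 and 0 Sox6 reads in replicate 1 and none in replicate 2. In the deposited interval of the replicate 1 peak, replicate 2 held 4 Sox6 reads against 0 input reads, and in that of the replicate 2 peak, replicate 1 held 1 Sox6 read against 3 input reads. Pol II held 4 and 7 reads in the common window, a log2 ratio of 1.78 (SE 0.51, limma, adjusted p = 0.001258), where 58.8% of 1060 common peaks were higher and 1.51% lower. The Pol II call was lost without either input library, at 1.74 and 1.82.

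The peak in Mbnl1 lies in intron 1 of the longest model, 3677 bp after start 2, the start dense in CpG. Its window took in 9 and 4 reads of Sox6 and 7 reads of each input, or 3.02 and 2.72 RPM against 0.319 and 0.289 RPM. Windows 2 kb to either side held 0 Sox6 reads in both replicates. The 4 reads of replicate 2 passed against 7 input reads (exact binomial test, adjusted p = 0.005034), although this site is in the replicate 1 list only. Pol II held 0 and 1 reads there, against the same 7 reads of each input.

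The 3 Ptbp1 peaks lie 13191, 4031 and 2471 bp before the start. The gene nearest to all 3 is E130317F20Rik, a long noncoding RNA gene on the opposite strand (chromosome 10, 79314126 to 79317701, 2 exons) that overlaps the Ptbp1 start, and the proximal peak lies inside it. The distal peak held 8 and 10 Sox6 reads, or 2.68 and 6.81 RPM, against 0.228 and 0.619 RPM of input. The middle peak held 10 and 6 reads, or 3.35 and 4.09 RPM, and the proximal peak 12 and 7 reads, or 4.02 and 4.77 RPM. All 3 passed in the reads of replicate 2 (exact binomial test, adjusted p = 3.005e-06, 0.003919 and 0.0003209), though none was in the replicate 2 list. In the deposited interval of the middle peak replicate 2 held 0 Sox6 reads, and it no longer passed (adjusted p = 1).

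**Figure D5:**
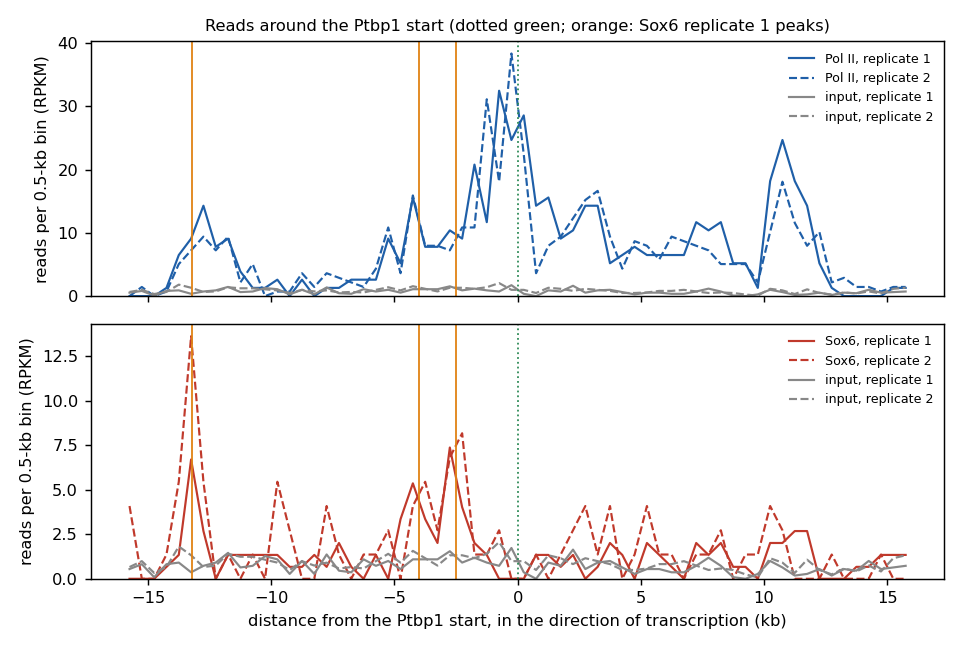
Reads per 0.5 kb bin (RPKM) from 16 kb before to 16 kb after the Ptbp1 start, with Pol II above and Sox6 below, each with input; solid lines are replicate 1 and dashed lines replicate 2. Pol II is highest around the start (24.4 and 27.5 RPKM from -1.5 to 0.5 kb), and Sox6 is high at the orange marks of the 3 peaks and low at the start (0.335 and 1.02 RPKM).

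Sox6 and Pol II were both read along the stretch before Ptbp1, with no test. From 14 to 11 kb before the start, the stretch of the distal peak, Sox6 stood at 2.23 and 4.31 RPKM and Pol II at 8.45 and 6.76 RPKM. Between 11 and 6 kb before it both were lower, with Sox6 at 1.005 and 1.63 RPKM and Pol II at 1.56 and 2.17 RPKM. From 6 to 1.5 kb before it, where the middle and proximal peaks lie, Sox6 stood at 3.20 and 3.63 RPKM and Pol II at 9.82 and 8.85 RPKM. From 1.5 kb before to 0.5 kb after the start Pol II rose to 24.4 and 27.5 RPKM, and Sox6 stood at 0.335 and 1.02 RPKM, from 2 and 3 reads. The stretches before the start were set around peaks called on the Sox6 reads of replicate 1, so high Sox6 in them follows from that choice. Pol II did not select the peaks and was also higher in the stretches that hold peaks than between them. The bounds of the stretches were not planned, so this is a description. Around the start Pol II was highest and Sox6 lowest of these 4 stretches. In the 450 bp windows Pol II held 5 and 8 reads at the distal, 8 and 19 at the middle and 3 and 7 at the proximal peak. Windows 2 kb before these peaks held 0 and 2, 3 and 3, and 8 and 8 Pol II reads. Windows 2 kb after them held 2 and 2, 11 and 14, and 17 and 36. The proximal peak window thus held less Pol II than both its flanks. Over the body of E130317F20Rik Pol II stood at 18.4 and 19.7 RPKM and Sox6 at 2.50 and 3.32 RPKM. This body holds the proximal peak, whose deposited interval took in 14 of its 23 and 10 of its 15 Sox6 reads, so no test is given. Reads in the overlap cannot be assigned to Ptbp1 or to E130317F20Rik.

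Other regulators of tissue splicing gave a mixed picture. Of 31 further genes of the CELF, PTB, RBFOX, NOVA, ESRP, ELAVL and related families, 15 had more Pol II than input, 11 less and 5 did not pass, with a median log2 ratio of 0.35 against 0.12 over all bodies, of which 37.5% were higher and 25.4% lower. Hnrnpl (10.5 RPKM), Rbm38 (8.21) and Qk (5.98) carried the most, and the neuronal genes Elavl4 (0.07) and Khdrbs2 (0.0608) the least. Sox6 was higher over 4 of the 31 bodies, where 5.39% of all bodies were, and common Sox6 peaks lay in or within 20 kb of 5 of them, against 4.29% of all genes. Rbfox2, an activator of muscle exons, has a peak inside the gene with 49 and 28 reads of Sox6 and 10 and 7 of input, the strongest of these. The weakest was inside Rbfox1, with 17 and 8 reads of Sox6 against 10 and 11 of input, and the others lay near or in Rbm20, Esrp2 and Khdrbs3.

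Transcripts whose exons are known to be regulated by MBNL, CELF, PTB or RBM24 proteins in muscle were also counted. Of 36 such genes 33 had more Pol II than input, 1 less and 2 did not pass, with a median log2 ratio of 2.05, beside the 37.5% higher and 25.4% lower over all bodies. Sox6 was higher over 12 bodies and lower over 3, where 5.39% and 1.75% of all bodies were, with a median log2 ratio of 0.41 against 0.17 over all bodies. It was also higher over 5 of the 10 myotube markers, with a median log2 ratio of 0.89, so this was not particular to the 36 genes. Sox6 calls over bodies depended on the pseudocount, as given further on. Tpm2 (41.4 RPKM), Tnnt3 (28.3) and Tnnt2 (21.7), which encode thin-filament proteins, carried the most Pol II, and Gphn (0.234) the least. Common Sox6 peaks lay in or within 20 kb of 6 of the 36, against 4.29% of all genes, among them Enah, Tnnt2, Tpm1 and Fhod3, with 10 to 22 Sox6 reads in a window in replicate 1 and 7 to 13 in replicate 2. The Celf2 peak, with 15 and 12 reads, lay within the range of these 4.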

How the data were processed

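ChIP-seq reads of Sox6, Pol II and input, 2 libraries each, were aligned by the authors with Bowtie 0.12.5 at default parameters to NCBI Build 37, and reads mapped to a single place were kept. Peaks were called by the authors in each replicate with SISSRs, with a fragment length of 450 bp and the input of the same experiment as background, and common Sox6 peaks were those within 50 bp in the ChIP-Seq Tool Set. As deposited, the values are positions of mapped reads and of peaks, with no count or normalization. Whether repeated positions were removed is not given in the sources used here, and the files contain them. The score of the deposited Pol II peaks was not used. Immunoprecipitated DNA was amplified by PCR without molecular identifiers, so exact tests and limits cover counting error only. The labels give 2 replicates a group, from independent experiments for Sox6 and Pol II. Samples were grouped by their titles.

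Genes were taken from the GENCODE annotation of the same build for those with a RefSeq transcript, each represented by its longest model. Sequences were read from the genome of that build. Reads were counted by their 5′ end, without strand, in 500 bp on each side of starts (starts of a gene within 500 bp joined), over bodies from 500 bp after the start in genes over 1000 bp, and in 450 bp around peak centres. Features with fewer than 10 reads in a comparison were left out. Levels were scaled to mapped reads (RPM) and length (RPKM). Library totals run from 1468604 to 24249850, so inputs are the most precise. ChIP was compared with input by limma 3.58.1 with a trend in R 4.3.3 on log2 of scaled reads, over all features, with Benjamini-Hochberg adjustment at 0.05. With 0.5 reads added per library, the form used, simulated starts with an 8-fold rise were called in 44 of 47 cases for Pol II and 40 of 46 for Sox6. A 4-fold rise was called in 19 of 44 and 14 of 39 cases, and a 2-fold rise in 0 of 41 and 3 of 41. Among unchanged starts 45 and 32 were called higher. The form planned first, 1 read of the shallowest library as RPM, called 651 unchanged Pol II starts lower and no changed Sox6 start, and was kept as an alternative. The change was made on the simulation of starts, with earlier results of these data, fitted with 0.5 reads, already known. For bodies the planned form called 1 of 19935 unchanged for Pol II and 0 of 19938 for Sox6. At a 4-fold rise it called 36 and 38 of 50 bodies, against 44 and 46 with 0.5 reads, so the simulation did not fault it there. With 0.5 reads added, unchanged starts had median log2 ratios of 0.32 and 0.33, an upward bias at low counts. Other software was samtools 1.23.1, pysam 0.24.0, Python 3.11.15, scipy 1.17.1, pandas 2.3.3, matplotlib 3.10.9 and numpy 2.4.6.

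The regulators and all gene lists were chosen with earlier results of these data known. Named were the 8 regulators, Actb, genes overlapping them or nearest to their peaks, the gene nearest to each in pattern and, in each list (tissue splicing regulators, SR and hnRNP factors, known targets), genes with a common Sox6 peak, at most 5, and the 3 highest and 2 lowest in Pol II. Rbm4 of the first list was not found. A gene of the last list is not reported here. Further names, chosen after their values were seen, are Gm13389, Gm17437, Psmc3, Slc39a13, Tubb3, Cd68, Ptprc and Hbb-b1. Alternatives were other pseudocounts, windows, distances and filters, median centring, a shift of 75 bp, repeated positions counted once, summed inputs, all libraries in one fit, the replicate number as a block and each library left out. Segments, the span of any transcript and starts of any transcript were added after the data were seen. The stretches read along Celf2 and before Ptbp1 were not planned.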

Additional observations from a re-analysis of the deposited data

How the results depend on the processing

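The Pol II calls over the bodies of the 8 regulators were 6 higher under each alternative run. Over all bodies the number lower, 5109, ranged from 3219 to 6909 with a library left out, and Pol II at common peaks, 623 higher, from 302 to 617. Pol II starts higher, 10666, numbered 6753 with median-centred libraries. Of the 16 coding starts of the regulators 9 were higher, and 5 with 250 bp on each side, for which the share over all starts is not given. With starts of any transcript 14 were higher, but that set is larger because it adds starts of noncoding transcripts. Over all genes 38.7% of 35513 such starts were higher, so 9 and 14 are not counts of the same starts. Pol II starts lower, 16, numbered 4230 and 3874 with a pseudocount of 1 or 3 reads, 840 with median centring, 27 with no filter, 7 in one fit of all libraries, 9 with the replicate block, 1 with 250 bp and 382 with 1000 bp on each side, and from 2 to 1215 with a library left out. Sox6 depended on the processing throughout. Starts with more Sox6, 605, numbered 0 with a pseudocount of 1 or 3 reads and with median centring, 1949 with no filter, 334 with 250 bp and 134 with 1000 bp on each side, and from 24 to 9773 with a library left out. The count for the regulators' starts, 1, was 0 under these pseudocounts, median centring, both other windows and starts of any transcript, and from 0 to 2 with a library left out. Bodies with more Sox6, 1088, numbered 17 under either pseudocount, 122 with median centring and from 173 to 7163 with a library left out. Bodies with less Sox6, 354, numbered 0 under either pseudocount, 1154 with the replicate block and from 32 to 3034 with a library left out, and starts with less Sox6, 0, numbered 3 in one fit of all libraries and up to 1163 with a library left out. The regulators' bodies with more Sox6, 0, became 1, Ptbp1, in one fit of all libraries, and ranged from 0 to 2 with a library left out. Of their bodies Mbnl3, Celf1 and Ptbp2 passed as having less Sox6 without Sox6 replicate 1, and Mbnl3 without replicate 2. The Sox6 log2 ratio at the Celf2 peak, 3.02, was 2.26 with a pseudocount of 1 read and 2.11 with 500 bp on each side. In the deposited interval 902 and 790 peaks passed in the other replicate, in place of 1936 and 1463. Inside genes alone the regulators had 0 common, 1 replicate 1 and 0 replicate 2 peaks, and within 50 kb 3 replicate 2 peaks. The cause of these differences was not tested. Libraries with the same replicate number did not deviate together (correlations from -0.0810 to 0.0678), so the numbers were not taken as pairs. With the replicate number as a block, Sox6 bodies higher numbered 2779 and the regulators 1, Ptbp1 (with Celf2 at -0.17 and Ptbp2 at -0.47 passing as lower), and Pol II bodies 7597 and 6. Sox6 depth, with 0 to 14 reads in the start windows of the regulators, limits what could be called.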

Other observations

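General splicing factors carried Pol II without exception in the list tested. Of 30 genes for SR proteins, hnRNP proteins and the kinases of SR proteins, 30 had more Pol II than input over the body (limma, adjusted p under 0.05), with a median log2 ratio of 2.13 against 0.12 over all bodies, of which 37.5% were higher and 25.4% lower. Srsf3 (9.51 RPKM), an SR protein, Srpk3 (9.25), a kinase largely restricted to muscle, and Hnrnpa2b1 (9.10) carried the most, and the related kinases Srpk1 (1.08) and Srpk2 (1.07) the least. Sox6 was called over none of the 30 bodies in limma (at an unadjusted p under 0.05, 1 was higher and 6 lower), where 5.39% of all bodies were higher and 1.75% lower. Common Sox6 peaks lay within 20 kb of 2 of the 30 genes, against 4.29% of all genes, Tra2a with 26 and 10 Sox6 reads against 5 and 16 input reads, and Srsf3 with 11 and 6 against 6 and 10.

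In the 10 kb after the last annotated base of Celf2, Sox6 held 32 and 30 reads, or 1.07 and 2.04 RPKM, against 0.742 and 0.755 RPKM of input. This stretch was picked after the values were seen and was not tested.

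Nearest to each regulator across 8 log2 ratios (Sox6 and Pol II at the start and over the body, 2 replicates each), by Euclidean distance among 17891 genes, were Odf3l1 for Mbnl1 (0.584), Taf6 for Mbnl2 (0.522), Acot9 for Celf1 (1.17) and Zc3h11a for Celf2 (0.536). Lamtor3 was nearest to Ptbp2 (0.582), Ankrd23 to Rbm24 (0.795) and Ppp1r15a to Ptbp1 (1.97), the largest of the 7 distances. Mbnl3 was left out because its most upstream coding start fell below the read filter.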
